A study of Homo sapiens with 11 samples.

Results

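Transcripts of 9 transcription factors of the myeloid lineage were followed in leukemia cells, namely SPI1, CEBPA, CEBPB, CEBPD, CEBPE, IRF8, GFI1, VENTX and MYB. The factors were taken by gene symbol from the 38557 genes of the count table, and all 9 were found. The cells were MOLM-13, an acute myeloid leukemia line with a rearranged KMT2A gene, kept for 72 h in the solvent DMSO (4 libraries), in MI-503 at 1 µM (4 libraries) or in the same dose of MI-503 together with PR-957 at 100 nM (3 libraries, replicates 1, 2 and 4, called the combination here). MI-503 inhibits Menin, the partner protein through which KMT2A fusions bind their target genes, and PR-957 (ONX-0914) inhibits PSMB8, a catalytic subunit of the immunoproteasome. None of the libraries received PR-957 alone, so its effect was read only on top of MI-503. The labels do not say whether replicates were separate cultures of this line. The p-values weigh group differences against the spread between these libraries, which may therefore be technical. That spread was estimated over the 3 groups together, so the combination libraries also bear on the p-values of MI-503 against DMSO.

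Myeloid cells are specified by a small set of DNA-binding proteins that act on the same enhancers. SPI1 (PU.1) and CEBPA open the myeloid program, CEBPE and GFI1 act in granulocyte formation, IRF8 favors monocytes and dendritic cells, and CEBPB and CEBPD are induced by stress, cytokines and maturation. MYB keeps progenitors immature and proliferating, and in KMT2A-rearranged leukemia it is needed by the leukemic cells. VENTX is a homeobox factor that has been studied in macrophage maturation.

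In the hg38 annotation of the counts, CEBPA, CEBPB and CEBPD were genes of 1 exon, and the others had from 2 (CEBPE) to 19 (MYB) separate stretches of exon. Fragments that overlapped exons of more than 1 gene had been left out of the counts. Such shared bases made up 26.6% of the CEBPB exon (561 of 2108 bases, shared with the antisense gene CEBPB-AS1) and 2.08% of the MYB exons (87 of 4187 bases, shared with LOC105378011), against 0 bases for the other 7 factors.

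The 250 bases before the transcription start are printed for CEBPB, GFI1, VENTX and MYB, the 4 factors whose combination libraries did not overlap the MI-503 libraries. Sequences and start sites are those of RefSeq on GRCh38.p14, read 5′ to 3′ on the strand of the gene, and capitals mark matches to the motifs named beneath. The CEBPB window is chr20:50190333-50190582 on the plus strand, that of GFI1 chr1:92486926-92487175 on the minus strand, that of VENTX chr10:133237605-133237854 on the plus strand and that of MYB chr6:135181058-135181307 on the plus strand.
CEBPB: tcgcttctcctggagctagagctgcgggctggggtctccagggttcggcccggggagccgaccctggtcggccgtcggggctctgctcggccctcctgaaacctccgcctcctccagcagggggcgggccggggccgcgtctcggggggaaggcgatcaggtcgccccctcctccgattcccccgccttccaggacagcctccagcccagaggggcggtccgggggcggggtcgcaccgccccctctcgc
GFI1: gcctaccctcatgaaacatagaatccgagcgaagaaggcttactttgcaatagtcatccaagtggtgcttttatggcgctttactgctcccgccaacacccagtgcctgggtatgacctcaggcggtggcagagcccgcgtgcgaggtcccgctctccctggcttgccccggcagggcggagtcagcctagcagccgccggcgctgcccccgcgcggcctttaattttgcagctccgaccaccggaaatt
VENTX: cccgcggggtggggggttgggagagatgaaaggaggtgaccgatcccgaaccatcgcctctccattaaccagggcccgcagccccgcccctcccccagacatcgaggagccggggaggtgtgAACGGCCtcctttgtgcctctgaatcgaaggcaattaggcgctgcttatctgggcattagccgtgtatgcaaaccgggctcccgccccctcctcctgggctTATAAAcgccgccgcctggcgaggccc
MYB: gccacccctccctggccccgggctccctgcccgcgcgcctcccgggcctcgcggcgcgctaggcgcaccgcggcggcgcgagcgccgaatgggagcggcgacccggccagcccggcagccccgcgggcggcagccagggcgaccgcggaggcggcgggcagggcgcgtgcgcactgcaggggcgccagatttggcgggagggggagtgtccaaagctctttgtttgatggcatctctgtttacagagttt

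Such windows were read for 7 of the 9 factors. Where more than 1 start was listed, as for CEBPB (2) and GFI1 (3), only the window of the most upstream start was read. Windows on chromosome 8, which holds CEBPD, were left out when the factors were looked up, and none was found for SPI1. The CEBPB and MYB windows held 75.6% G and C, the VENTX window 65.2% and the GFI1 window 61.2%, against a median of 58.0% over 35116 windows. A set of 6 short motifs was searched on both strands, and matches did not overlap each other in these windows. The site of C/EBP factors was written as TTGCNNAA and was found in 9.05% of all windows. The ETS core that SPI1 reads, written GAGGAA, was found in 23.6% of windows and the GFI1 core, written AAATCA, in 11.6%. The MYB site, written AACNGNC, was in 26.9% of windows. A start-site element written TATAAA was in 10.7% of windows. The promoter element written CCAAT was in 32.0% of windows. VENTX held the MYB site at positions −128 to −122 and the TATAAA element at −27 to −22, counted back from −1 at the base before the start. None of the 6 motifs was found in the windows of CEBPB, GFI1 and MYB. Of the windows not printed, that of CEBPA held TATAAA at −30 to −25, that of CEBPE held GAGGAA at −41 to −36 and that of IRF8 held none.

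Counted fragments ran from 18.9 to 41.2 M per library. Combination replicate 1, the deepest library, stood apart from its group. Levels are given as CPM, counts per M of counted fragments. Among 10041 genes averaging 5 CPM or more, 36 lay over 2-fold from the mean of the remaining combination libraries in replicate 1, while replicate 2 had 4 such genes, replicate 4 had 13 and no DMSO or MI-503 library had more than 1. It was also the lowest of the combination libraries for 8 of the 9 factors, all but VENTX, at 0.49 (CEBPE) to 0.85 (GFI1) times the mean of the other two. Fold changes of the factors in the combination are therefore given with and without it, while levels, shares and list medians of the combination include it.

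The myeloid label of the line was checked against markers. PTPRC, CD33, FLT3, FUT4 and MPO reached at least 34.2 CPM in every library, whereas ANPEP had 57 counts in all 11 libraries together. The summed level of 4 B lymphoid markers ran from 48.9 to 51.5 CPM in DMSO, from 33.6 to 34.3 in MI-503 and from 24.3 to 27.7 in the combination. That sum was nearly all PAX5, while CD79A and EBF1 stayed at or under 1.73 CPM. Of 4 erythroid markers, EPOR gave the level (sums of 20.8 to 21.4, 28.7 to 31.8 and 24.1 to 29.0 CPM) and KLF1 and HBG1 stayed at or under 0.201 CPM. Sums reached at most 0.569 CPM for 4 T lymphoid, 1.47 for 3 megakaryocyte and 2.34 for 3 stroma markers. The part of PAX5 and EPOR in the results was not tested.

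**Figure D1:**
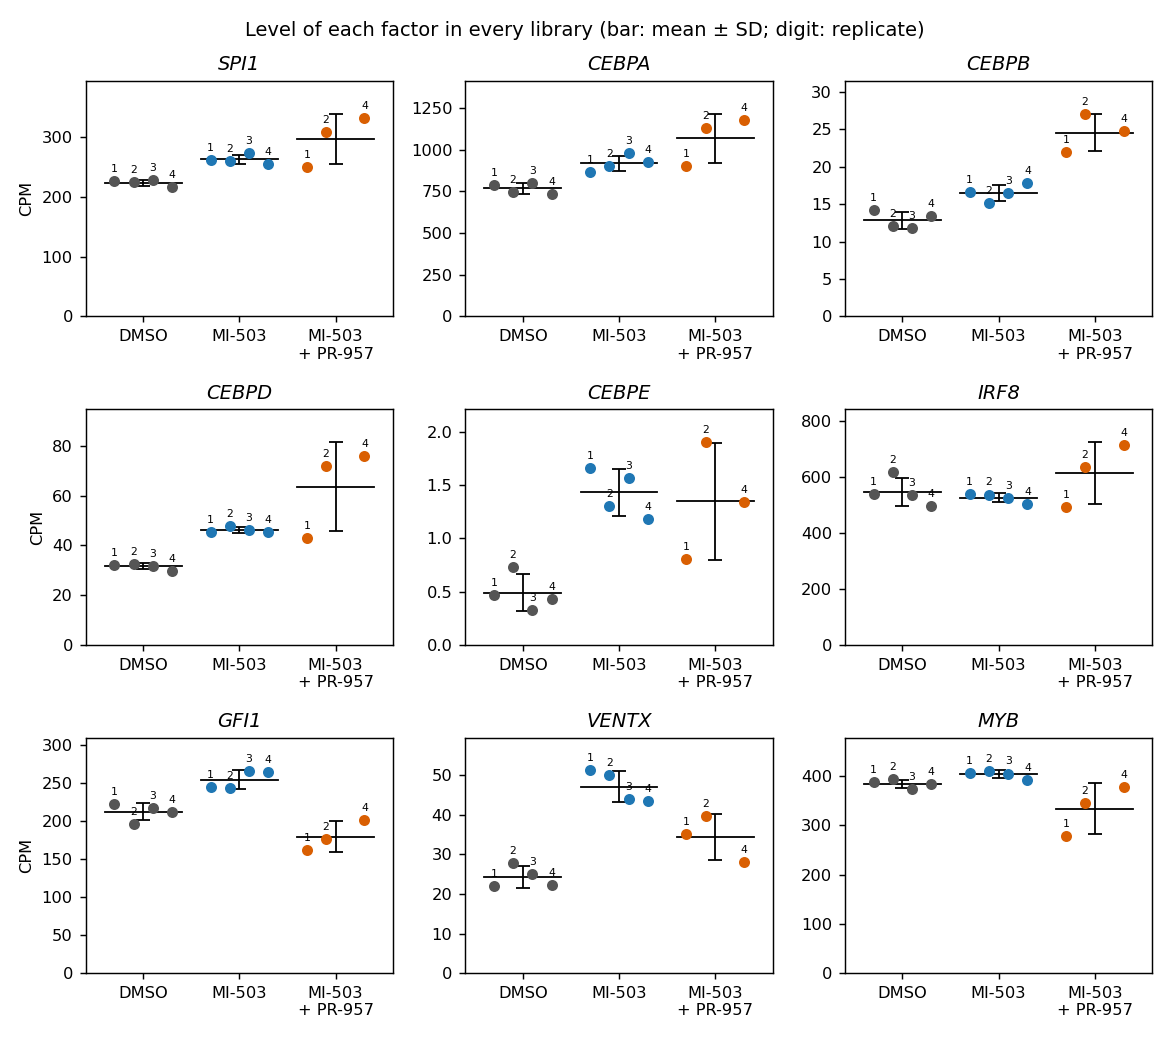
Level of each factor in CPM (vertical axis, from 0, on a scale of its own per panel) in the 4 DMSO, 4 MI-503 and 3 combination libraries, with the replicate number at each point and the group mean ± SD as a bar. VENTX runs from 22.1 to 27.9 CPM in DMSO, from 43.4 to 51.1 in MI-503 and from 28.2 to 39.6 in the combination, whereas IRF8 overlaps among all 3 groups.

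Levels of the factors were compared with each other per kb of exon, since longer transcripts give more fragments. In DMSO, CEBPA was the most abundant at 292 ± 12.4 CPM per kb (SD, n = 4), followed by IRF8 at 199.8 ± 18.7 and MYB at 91.7 ± 1.93. SPI1 stood at 72.4 ± 1.59, GFI1 at 33.5 ± 1.77 and CEBPD at 25.2 ± 0.974 CPM per kb. VENTX (9.20 ± 1.04), CEBPB (6.11 ± 0.536) and CEBPE (0.318 ± 0.112) were the lowest. Neighbors in this order did not overlap between libraries, and the order was the same in MI-503. In the combination, SPI1 (96.2 ± 13.7, n = 3) and MYB (79.7 ± 12.2) traded places with overlapping libraries, and CEBPD (50.8 ± 14.3) stood above GFI1 (28.4 ± 3.15) with no overlap. VENTX (10.7 to 15.0) and CEBPB (10.4 to 12.8) overlapped there. Counted over the bases of CEBPB that no other gene covers, its level was 8.32 in DMSO and 15.9 CPM per kb in the combination, which placed it above VENTX in the combination.

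How the factors respond to Menin inhibition was read from MI-503 against DMSO. Of the 9 factors, 7 rose and 0 fell, while IRF8 and MYB did not pass the test. Of the 14683 genes tested, 51.4% were called at an edgeR adjusted p under 0.05, 22% higher and 29.3% lower. The median log2 fold change was 0.26 over the 9 factors and −0.03 over all genes. The balance of calls depended on scaling. With upper-quartile factors 54.2% of the calls were higher (3968 higher, 3356 lower), against 42.9% with TMM (3235 and 4307), and the same 7 factors remained called higher. In bulk RNA, a change in the share of cells of a type cannot be told apart from a change of RNA per cell.

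The combination was compared with DMSO and with MI-503 to read the added effect of PR-957, and both of these comparisons share their libraries with the first. Against DMSO, 6 factors rose, GFI1 and MYB fell and IRF8 did not pass, where 64.5% of all genes were called (31.7% higher, 32.8% lower). Against MI-503, SPI1, CEBPA, CEBPB and CEBPD rose and GFI1, VENTX and MYB fell, where 47.4% of all genes were called (23.6% higher, 23.8% lower). The medians over the factors were 0.48 against DMSO and 0.17 against MI-503, beside 0.01 and 0.00 over all genes. Without combination replicate 1 the counts were 7 higher and 1 lower against DMSO, and 5 higher and 3 lower against MI-503. Of the 14751 genes tested in that setting, 4689 were higher and 4664 lower against DMSO, and 3209 and 4059 against MI-503. Without combination replicate 2 or 4, 1 factor instead of 4 was called higher against MI-503, and without MI-503 replicate 1 the count was 2. Over all genes, 3467 were higher and 3489 lower against MI-503 with every library kept. These became 2578 and 3549 without combination replicate 2, 2802 and 3980 without replicate 4, and 3200 and 3298 without MI-503 replicate 1. The median over all genes was −0.03 without combination replicate 2 and −0.04 without replicate 4. Library values did not overlap for 7 factors between MI-503 and DMSO, for 6 between the combination and DMSO and for 4 between the combination and MI-503, beside 50.3%, 60.5% and 47.6% of all genes. With combination replicate 1 left out, 8 factors in place of 4 did not overlap between the combination and MI-503. Fewer libraries make non-overlap easier for any gene, and the share of all genes was not computed for that setting.

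**Figure D2:**
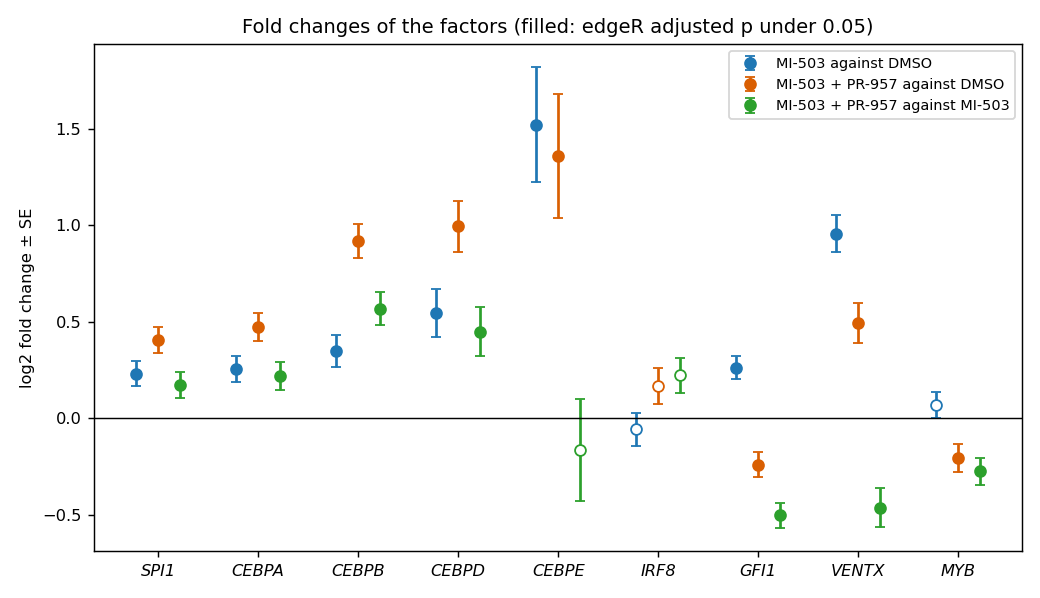
Fitted log2 fold change ± SE of each factor (vertical axis) in the 3 comparisons, filled where the edgeR adjusted p is under 0.05. CEBPB lies at 0.35, 0.92 and 0.57, whereas GFI1 lies at 0.26, −0.24 and −0.50 in the order of the legend.

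SPI1 encodes the ETS factor PU.1, which binds enhancers of most myeloid genes (chromosome 11, 47354859 to 47395640, minus strand). It stood at 226, 225, 228 and 217 CPM in DMSO replicates 1 to 4, at 262, 261, 274 and 256 CPM in MI-503 replicates 1 to 4, and at 250.4, 309 and 332 CPM in combination replicates 1, 2 and 4. Every treated library lay above every DMSO library, while combination replicate 1 lay below all 4 MI-503 libraries and the other two above them. On the log2 scale SPI1 rose by 0.23 in MI-503 (SE 0.06, edgeR adjusted p = 0.00555) and by 0.41 in the combination (SE 0.07, edgeR adjusted p = 5.29e-05), both against DMSO. The combination exceeded MI-503 by 0.17 (SE 0.07, edgeR adjusted p = 0.0438). That last call was lost in 15 of 20 alternative settings, among them DESeq2 (adjusted p = 0.0697), limma-voom (adjusted p = 0.058) and the omission of any 1 DMSO replicate or of MI-503 replicate 1, 2 or 4. It was 0.11 without combination replicate 2 (edgeR adjusted p = 0.299), 0.05 without replicate 4 (edgeR adjusted p = 0.572) and 0.26 without replicate 1 (edgeR adjusted p = 2.56e-05). Leaving out combination replicate 1 made the rise against DMSO 0.54 (edgeR adjusted p = 1.49e-10).

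CEBPA encodes the C/EBP factor that commits progenitors to the granulocyte and monocyte fates (chromosome 19, 33299934 to 33302564, minus strand). Its levels were 791, 749, 803 and 735 CPM in DMSO, 869, 901, 979.7 and 926 CPM in MI-503, and 901, 1130.1 and 1178 CPM in the combination. Treated libraries again lay above all DMSO libraries, and combination replicates 2 and 4 lay above all MI-503 libraries. CEBPA rose by 0.26 in MI-503 (SE 0.07, edgeR adjusted p = 0.00422) and by 0.48 in the combination (SE 0.07, edgeR adjusted p = 1.92e-05). The combination exceeded MI-503 by 0.22 (SE 0.07, edgeR adjusted p = 0.0199), and this call did not hold when MI-503 replicate 1 (0.19, edgeR adjusted p = 0.0585) or combination replicate 2 (0.14, edgeR adjusted p = 0.194) or 4 (0.11, edgeR adjusted p = 0.252) was left out. Without combination replicate 1 the values were 0.60 against DMSO (edgeR adjusted p = 1.47e-10) and 0.30 against MI-503 (edgeR adjusted p = 1.77e-05).

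CEBPB, an activator of inflammatory and maturation genes (chromosome 20, 50190583 to 50192690, plus strand), rose in all 3 comparisons. It was counted at 14.2, 12.1, 11.8 and 13.4 CPM in DMSO, at 16.6, 15.2, 16.4 and 17.8 CPM in MI-503 and at 21.9, 27.0 and 24.8 CPM in the combination. None of the 3 groups overlapped. The rise was 0.35 in MI-503 (SE 0.08, edgeR adjusted p = 0.00205) and 0.92 in the combination (SE 0.09, edgeR adjusted p = 6.51e-08), and the combination exceeded MI-503 by 0.57 (SE 0.08, edgeR adjusted p = 3.39e-05). In all 20 alternative settings these 3 calls held, with the added step between 0.46 and 0.63. Without combination replicate 1 CEBPB rose by 1.02 against DMSO (edgeR adjusted p = 1.62e-10) and by 0.63 against MI-503 (edgeR adjusted p = 7.12e-07).

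CEBPD, a rapidly induced C/EBP factor of the acute phase response (chromosome 8, 47736913 to 47738164, minus strand), had DMSO levels of 32.3, 32.4, 31.9 and 29.8 CPM. In MI-503 the levels were 45.2, 47.8, 46.2 and 45.3 CPM, and in the combination 43.0, 71.7 and 76.0 CPM. Both treated groups lay above DMSO, but combination replicate 1 lay below the MI-503 libraries while the other two were well above them. CEBPD rose by 0.55 in MI-503 (SE 0.12, edgeR adjusted p = 0.0014) and by 1.00 in the combination (SE 0.13, edgeR adjusted p = 3.49e-06). The added step was 0.45 (SE 0.13, edgeR adjusted p = 0.00781). When combination replicate 1 was omitted it was 0.65 (edgeR adjusted p = 2.39e-10), with 1.24 against DMSO (edgeR adjusted p = 1.23e-15), and it was not called without combination replicate 2 (0.32, edgeR adjusted p = 0.0839) or 4 (0.25, edgeR adjusted p = 0.108).

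CEBPE drives late granulocyte maturation and secondary granule genes (chromosome 14, 23117306 to 23119611, minus strand). It was scarce, with 14, 16, 7 and 9 counts in DMSO replicates 1 to 4, 36, 45, 38 and 29 counts in MI-503, and 34, 38 and 36 counts in the combination. In CPM these were 0.473, 0.735, 0.332 and 0.427, then 1.67, 1.31, 1.57 and 1.19, and 0.803, 1.91 and 1.34. All treated libraries exceeded all DMSO libraries, and the combination overlapped MI-503. CEBPE had the largest fold change of the 9 factors in MI-503, 1.52 (SE 0.30, edgeR adjusted p = 3.98e-04), and rose by 1.36 in the combination (SE 0.32, edgeR adjusted p = 0.00127). The combination differed from MI-503 by −0.16 (SE 0.27, edgeR adjusted p = 0.646), and by 0.14 without combination replicate 1 (edgeR adjusted p = 0.669), where the rise against DMSO was 1.70 (edgeR adjusted p = 2.4e-05).

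IRF8, the factor of monocyte and dendritic cell fate (chromosome 16, 85899162 to 85922609, plus strand), did not pass the test in any of the 3 comparisons. It stood at 537, 617, 533 and 495 CPM in DMSO, at 537, 537, 524 and 502 CPM in MI-503 and at 494, 634 and 713 CPM in the combination. All 3 groups overlapped. IRF8 differed by −0.06 between MI-503 and DMSO (SE 0.08, edgeR adjusted p = 0.618), by 0.17 between the combination and DMSO (SE 0.09, edgeR adjusted p = 0.117) and by 0.22 between the combination and MI-503 (SE 0.09, edgeR adjusted p = 0.0534). When combination replicate 1 was left out, IRF8 was called higher in the combination, by 0.32 against DMSO (edgeR adjusted p = 9.42e-05) and by 0.33 against MI-503 (edgeR adjusted p = 1.07e-04). Without DMSO replicate 2, the highest of its group, it was likewise called, by 0.23 (edgeR adjusted p = 0.0374) and 0.22 (edgeR adjusted p = 0.0413).

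GFI1 encodes a repressor of monocyte genes that favors granulocytes (chromosome 1, 92473043 to 92486925, minus strand), and compared with DMSO it was higher in MI-503 and lower in the combination. Its levels were 223, 197, 217 and 212 CPM in DMSO, 245, 243, 266 and 264 CPM in MI-503, and 161, 177 and 201 CPM in the combination. MI-503 libraries lay above all others, and of the combination libraries only replicate 4 reached the DMSO range. GFI1 rose by 0.26 in MI-503 (SE 0.06, edgeR adjusted p = 0.00146). In the combination it fell by 0.24 against DMSO (SE 0.07, edgeR adjusted p = 0.00386) and by 0.50 against MI-503 (SE 0.07, edgeR adjusted p = 9.05e-06). Leaving out combination replicate 1 gave −0.15 against DMSO (edgeR adjusted p = 0.0263) and −0.45 against MI-503 (edgeR adjusted p = 4.99e-07).

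VENTX (chromosome 10, 133237855 to 133241928, plus strand), the homeobox factor whose window above held the MYB site, rose most in MI-503 among the factors above 1 CPM in DMSO. Its DMSO levels were 22.1, 27.9, 25.0 and 22.2 CPM and its MI-503 levels 51.1, 49.9, 43.9 and 43.4 CPM. The combination libraries, at 35.1, 39.6 and 28.2 CPM, lay between both groups and overlapped neither. VENTX rose by 0.96 in MI-503 (SE 0.10, edgeR adjusted p = 3.9e-07) and by 0.49 in the combination (SE 0.10, edgeR adjusted p = 4.74e-04), and with PR-957 added it fell by 0.46 (SE 0.10, edgeR adjusted p = 0.00111). Without combination replicate 1, which was not the lowest here, the last difference was −0.52 (edgeR adjusted p = 1.77e-04) and the rise against DMSO 0.49 (edgeR adjusted p = 3.49e-04).

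MYB, the progenitor factor (chromosome 6, 135181308 to 135219172, plus strand), had narrow ranges in DMSO (387, 393, 373 and 383 CPM) and in MI-503 (405, 410.3, 404 and 392 CPM). In the combination it had 278, 345 and 378 CPM, all below the MI-503 libraries, with replicate 4 inside the DMSO range. MI-503 against DMSO gave 0.07 (SE 0.07, edgeR adjusted p = 0.401), which passed the test without combination replicate 1 (0.11, edgeR adjusted p = 0.00955) or with only these groups in the fit (0.12, edgeR adjusted p = 0.00319). Those refits compared the same DMSO and MI-503 libraries, and the median over all genes moved as well, from −0.03 to 0.02 and 0.01. Genes called higher went from 3235 to 4141 and 4079. With PR-957 added, MYB fell by 0.27 (SE 0.07, edgeR adjusted p = 0.00447), and by 0.18 without combination replicate 1 (edgeR adjusted p = 0.00151) or 0.41 without replicate 4 (edgeR adjusted p = 6.19e-05). Against DMSO the combination differed by −0.20 (SE 0.07, edgeR adjusted p = 0.0188), a call lost without combination replicate 1 (−0.07, edgeR adjusted p = 0.185). With that library kept, it was also lost with upper-quartile factors (edgeR adjusted p = 0.0878), the stricter filter (0.0511) or only the compared groups in the fit (0.0721).

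**Figure D3:**
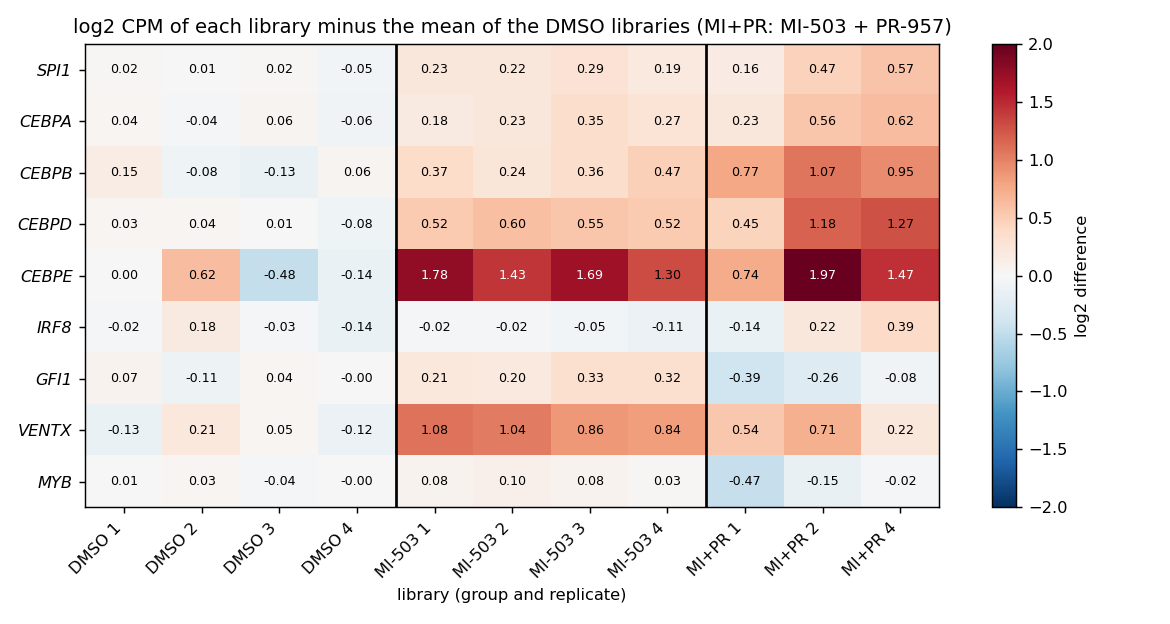
Difference in log2 CPM (prior count 0.5) between each library (columns) and the mean of the 4 DMSO libraries for each factor (rows), on a color scale from −2 to 2. SPI1, CEBPA and CEBPD of combination replicate 1 read 0.16, 0.23 and 0.45, near the MI-503 libraries, against 0.47 to 1.27 in combination replicates 2 and 4.

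The makeup of the C/EBP transcripts was read within each library, as the share of each gene in the summed CPM per kb of all 4, which does not depend on scaling between libraries. CEBPA held 90.2 ± 0.356% of the DMSO sum (SD, n = 4), 88.4 ± 0.488% of the MI-503 sum (SD, n = 4) and 86.7 ± 1.43% of the combination sum (SD, n = 3). CEBPD held 7.79 ± 0.269%, 9.34 ± 0.459% and 10.7 ± 1.55%. MI-503 libraries did not overlap DMSO for either gene, whereas combination replicate 1, with 88.3% CEBPA and 8.87% CEBPD, lay inside the MI-503 range. CEBPB held 1.89 ± 0.184%, 1.99 ± 0.145% and 2.50 ± 0.218%, with the combination above both other groups. The CEBPB length included the 26.6% of its exon shared with CEBPB-AS1, where fragments were not counted, which lowers its share. CEBPE held 0.0987 ± 0.0365%, 0.235 ± 0.0401% and 0.182 ± 0.0578%. Counted with no division by length, CEBPA held 94.5%, 93.5% and 92.3%.

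**Figure D4:**
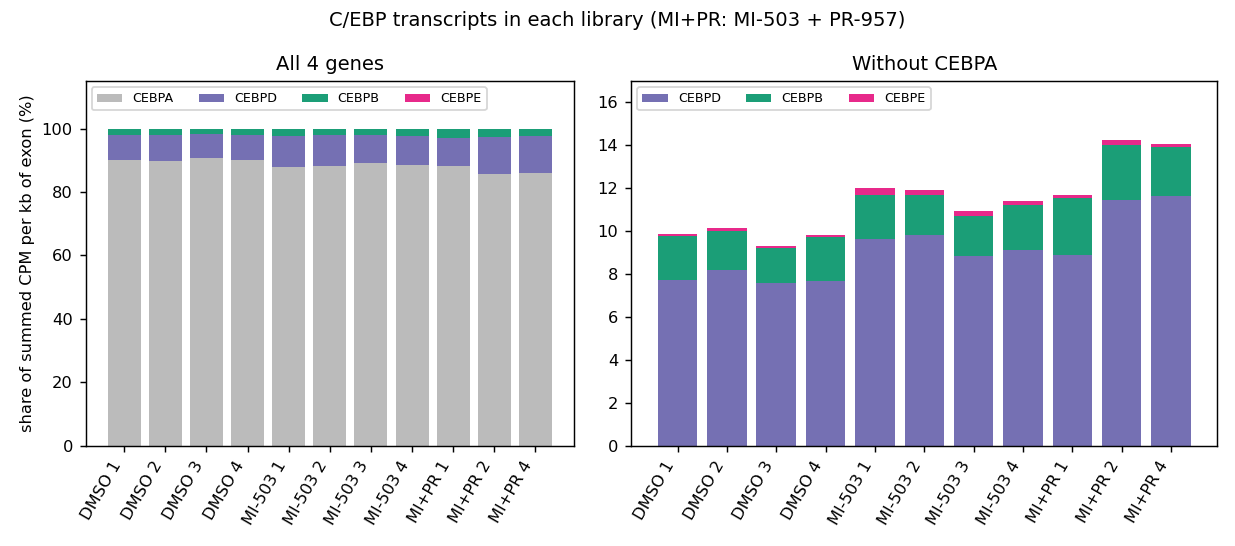
Share of CEBPA, CEBPD, CEBPB and CEBPE in their summed CPM per kb of exon (vertical axis, percent) in each library, with all 4 genes on the left and without CEBPA, on a wider scale, on the right. CEBPD takes 7.57 to 8.18% in DMSO, 8.83 to 9.83% in MI-503 and 8.87 to 11.6% in the combination.

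For the 5 factors whose fold change reached 0.5 on the log2 scale in some comparison, the 2 genes with the most similar pattern were looked up among 10033 genes of at least 5 CPM. Likeness was the root mean square difference in log2 CPM over the 11 libraries, each gene centered on its DMSO mean. Nearest to CEBPB were ENTPD4 (0.08) and PLEKHM1P1 (0.09), and nearest to CEBPD were CD38, an ectoenzyme that consumes NAD, and PLAU, the urokinase protease (both 0.08). HRH2, a histamine receptor, and LINC00623 were nearest to GFI1 (0.07 and 0.08). LINC00537 (0.08) and TSPAN32 (0.12) were nearest to VENTX. Nearest to CEBPE were ICAM3 and LOC101928004, both at 0.31. The DMSO libraries of CEBPE alone lay from −0.48 to 0.62 around their mean, so this larger distance cannot show whether its pattern is shared.

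Other genes around these factors were read as lists, each described by its counts and its median. Over all genes tested, 51.4% were called in MI-503 against DMSO (median −0.03), 64.5% in the combination against DMSO (median 0.01) and 47.4% in the combination against MI-503 (median 0.00), and the counts of each list stand beside these shares. Among the list genes named, leaving out combination replicate 1 moved the SPIB and BPI steps against MI-503 by over 1.5 times, ended the MMP9 call there and made MPO and PRTN3 called against DMSO. It also made CCR2 (0.46, edgeR adjusted p = 0.00104) and EP300 (−0.10, edgeR adjusted p = 0.0393) called against MI-503. In MI-503 against DMSO, HHEX, PRSS57 and LGALS3 became called higher. The libraries compared were the same there, and the median over all genes was 0.02 in place of −0.03. Of 26 relatives of the factors, 20 were tested. They had 3 higher and 9 lower in MI-503, 2 higher and 9 lower in the combination against DMSO, and 5 higher and 8 lower against MI-503, with medians of −0.11, −0.06 and −0.09. SPIB, the closest relative of SPI1, fell by 1.69 in MI-503 (edgeR adjusted p = 9.32e-07) and by 2.45 in the combination (edgeR adjusted p = 2.57e-08). BATF3, a dendritic cell factor that acts with IRF8, fell by 0.86 in MI-503 and fell by 1.37 in the combination, and IRF5 rose by 0.72 in MI-503 (edgeR adjusted p = 3.55e-07). DDIT3, the stress-induced C/EBP relative also named CHOP, rose with PR-957 added, by 1.24 (edgeR adjusted p = 3.18e-08), while MYBL2 fell by 0.73 (edgeR adjusted p = 1.06e-05). SPIB differed by −0.76 there (edgeR adjusted p = 0.0133), by −1.35 without combination replicate 1 and by −0.46 without replicate 4. Without combination replicate 2 or 4, 3 relatives instead of 5 were called higher against MI-503, and at an adjusted p under 0.01 there was 1. With upper-quartile factors or the stricter filter, 5 relatives in place of 2 were called higher in the combination against DMSO.

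Partner and lineage factors (14 of 19 tested) had 4 higher and 6 lower in MI-503, 4 higher and 8 lower in the combination against DMSO, and 2 higher and 8 lower against MI-503, with medians of −0.12, −0.25 and −0.16. NFE2, a leucine zipper factor of the erythroid and megakaryocytic lineages, rose by 1.50 in MI-503 (edgeR adjusted p = 8.09e-11) and by 1.46 in the combination (edgeR adjusted p = 5.42e-11). GATA2, a stem and progenitor factor, fell by 0.62 and by 1.17, with a further step of −0.55 on adding PR-957 (edgeR adjusted p = 3.48e-04). KLF4, a monocyte factor, rose by 0.59 in MI-503 and differed by −0.25 with PR-957 added (edgeR adjusted p = 0.0174), a step not called without MI-503 replicate 3 (edgeR adjusted p = 0.0646) or 4 (edgeR adjusted p = 0.0666). CBFB fell by 0.51 in the combination against DMSO and HHEX by 0.35 against MI-503. The count of 2 higher against MI-503 was 1 without MI-503 replicate 1, 2 or 4 and 0 without combination replicate 2 or 4. It was also 1 with RLE factors, DESeq2, the replicate block or an adjusted p under 0.01 and 4 with no filter, and the 8 lower were 5 at an adjusted p under 0.01.

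Cofactors and regulators (14 of 15 tested) had 4 higher and 5 lower in MI-503, 3 higher and 7 lower in the combination against DMSO, and 1 higher and 7 lower against MI-503, with medians of −0.11, −0.18 and −0.13. KDM1A, the histone demethylase through which GFI1 represses, fell by 0.27 in MI-503 (edgeR adjusted p = 2.36e-05) and by 0.59 in the combination (edgeR adjusted p = 3.12e-09). The deacetylases HDAC2 and HDAC1 fell by 0.53 and 0.44 in the combination, and HDAC2 by 0.44 against MI-503 (edgeR adjusted p = 5.44e-07). SMARCD2, a chromatin remodeler subunit used in granulocyte maturation, fell by 0.41 and the corepressor CBFA2T3 by 0.32 with PR-957 added, the latter after a rise of 0.48 in MI-503. EP300, a histone acetyltransferase and coactivator of MYB, fell by 0.23 in MI-503. The count of 3 higher in the combination against DMSO was 0 without DMSO replicate 1 or 4 or combination replicate 2, and 1 without DMSO replicate 3. The count of 1 higher against MI-503 was 0 without combination replicate 1 or 4 and with no filter. The 5 lower in MI-503 were 2 with upper-quartile factors, and 3 with no filter, with the stricter filter, at an adjusted p under 0.01 or without combination replicate 2. At an adjusted p under 0.01 the counts of higher cofactors were 0 in both comparisons of the combination.

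Receptors on which SPI1 or C/EBP factors are known to act (8 of 10 tested) had 8 higher in MI-503, with a median of 1.30. In the combination 7 were higher against DMSO (median 1.45), and against MI-503 3 were higher and 1 lower (median 0.14). TLR4, the receptor for lipopolysaccharide, rose by 3.48 in MI-503 (edgeR adjusted p = 6.57e-10) and by 3.61 in the combination. CSF1R, the receptor for macrophage colony-stimulating factor, rose by 2.43, by 3.10 and by 0.67 in the 3 comparisons. ITGAX, an integrin of dendritic cells and macrophages, rose by 1.93, by 3.28 and by 1.35. FCGR1A, the high-affinity Fc gamma receptor, fell by 0.53 with PR-957 added (edgeR adjusted p = 2.34e-04), and without combination replicate 4 it was also called lower against DMSO (−0.37, edgeR adjusted p = 2.24e-04), where the list otherwise had 0 lower.

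Primary granule genes (8 of 8 tested) had 4 higher and 0 lower in MI-503 (median 0.36), 1 higher and 1 lower in the combination against DMSO (median 0.00), and 1 higher and 4 lower against MI-503 (median −0.42). LYZ, lysozyme, rose by 1.98 in MI-503 (edgeR adjusted p = 1.04e-05) and by 4.11 in the combination (edgeR adjusted p = 2.56e-09). The further step on adding PR-957 was 2.13. LYZ spread widely over the combination libraries, at 1641 ± 968 CPM (SD, n = 3), against 376 ± 4.81 CPM in MI-503. PRTN3 (proteinase 3) and MPO (myeloperoxidase) rose by 0.97 and 0.92 in MI-503. With PR-957 added MPO fell by 0.74 (edgeR adjusted p = 4.67e-05), and the serine protease gene PRSS57 fell by 0.96 (edgeR adjusted p = 1.35e-09) and by 0.91 against DMSO. Against DMSO, the 1 higher in the combination became 3 without combination replicate 1 (MPO and PRTN3 added) and 2 without DMSO replicate 2, and the 1 lower became 2 without DMSO replicate 2 and 3 without combination replicate 4. With no filter both of these counts were 3, and with limma-voom or the replicate block 3 were lower. Of 10 genes listed as secondary and tertiary granule genes, 7 had at most 9 counts in all libraries together and were not tested. The 3 tested rose in MI-503 and in the combination against DMSO, with medians of 2.16 and 2.40, and the median against MI-503 was 0.67. BPI, an antibacterial protein of primary granules that was nevertheless put in this list, rose by 2.87 and 2.35. CHI3L1, a chitinase-like protein, rose by 2.16 and 2.84, and MMP9, a gelatinase, by 1.62 and 2.40. MMP9 was scarce, at 0.266, 0.807 and 1.38 CPM in DMSO, MI-503 and the combination. With PR-957 added, CHI3L1 rose by a further 0.67 (edgeR adjusted p = 1.11e-04) and BPI fell by 0.52 (edgeR adjusted p = 0.0147). The BPI value was −0.30 without combination replicate 1 and −0.87 without replicate 4, and DESeq2 did not call it (adjusted p = 0.0678). MMP9 differed by 0.78 (edgeR adjusted p = 0.0367), a call lost without MI-503 replicate 2 or 3, or without replicate 1 or 2 of the combination (edgeR adjusted p = 0.0684 to 0.168), which leaves 1 of the list called higher in place of 2. That count was also 1 with the stricter filter, DESeq2, the replicate block, only the compared groups in the fit or an adjusted p under 0.01.

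Monocyte and dendritic cell genes known as IRF8 or SPI1 targets (12 of 12 tested) had 10 higher and 1 lower in MI-503 (median 1.09), 11 higher and 1 lower in the combination against DMSO (median 1.28), and 5 higher and 2 lower against MI-503 (median 0.22). CCR2, a chemokine receptor of monocytes, rose by 2.73 in MI-503 (edgeR adjusted p = 1.86e-09) and by 3.04 in the combination. CIITA, the activator of MHC class II genes, rose by 1.54 in MI-503, and with PR-957 added it differed by −0.41 (edgeR adjusted p = 0.0328), a call lost without MI-503 replicate 1 (edgeR adjusted p = 0.103) or 2 (edgeR adjusted p = 0.0852) or combination replicate 2 (edgeR adjusted p = 0.0745). The other gene called lower there was CX3CR1, a chemokine receptor named after its values were seen, which rose by 1.50 in MI-503 and fell by 1.07 with PR-957 added (edgeR adjusted p = 1.31e-06). The count of 2 lower against MI-503 was 1 without MI-503 replicate 1 or combination replicate 2 and at an adjusted p under 0.01. CYBB, a subunit of the phagocyte oxidase, rose with PR-957 added by 1.44 (edgeR adjusted p = 0.00203). CYBB had risen by 1.52 in MI-503 (edgeR adjusted p = 0.0113). It was scarce, at 0.242, 0.706 and 2.06 CPM in DMSO, MI-503 and the combination. LGALS3, galectin 3, rose by 2.84 in the combination against DMSO and by 2.13 against MI-503 (edgeR adjusted p = 8.36e-05). Its level also spread widely over the combination libraries, at 34.1 ± 21.0 CPM (SD, n = 3), against 7.63 ± 0.340 CPM in MI-503.

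Progenitor genes known as MYB targets (7 of 8 tested) had 2 higher and 3 lower in MI-503 (median −0.10), 1 higher and 5 lower in the combination against DMSO (median −0.80), and 0 higher and 6 lower against MI-503 (median −0.35). CDK6, a cell cycle kinase, fell by 0.80 in MI-503 (edgeR adjusted p = 7.43e-10), where ADA (adenosine deaminase) rose by 0.75. In the combination CDK6 fell by 0.88, the cyclin gene CCNB1 by 0.85 and MYC by 0.82 (edgeR adjusted p = 1.54e-10). With PR-957 added, MYC fell by 0.41 (edgeR adjusted p = 1.88e-06) and BCL2, an inhibitor of apoptosis, fell by 0.72 (edgeR adjusted p = 5.4e-09). KIT, the stem cell factor receptor, stood near 1 CPM, at 0.420, 1.15 and 0.608 in the 3 groups. It rose by 1.43 in MI-503 (edgeR adjusted p = 6.25e-04) and differed by −0.82 with PR-957 added (edgeR adjusted p = 0.0238). That step was not called without MI-503 replicate 3 (edgeR adjusted p = 0.0859) or combination replicate 2 (edgeR adjusted p = 0.0615) or 4 (edgeR adjusted p = 0.0627). Without DMSO replicate 2, KIT was called higher against DMSO too, which made 2 higher in place of 1, as did no filter. With the stricter filter 1 gene in place of 2 was called higher in MI-503.

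**Figure D5:**
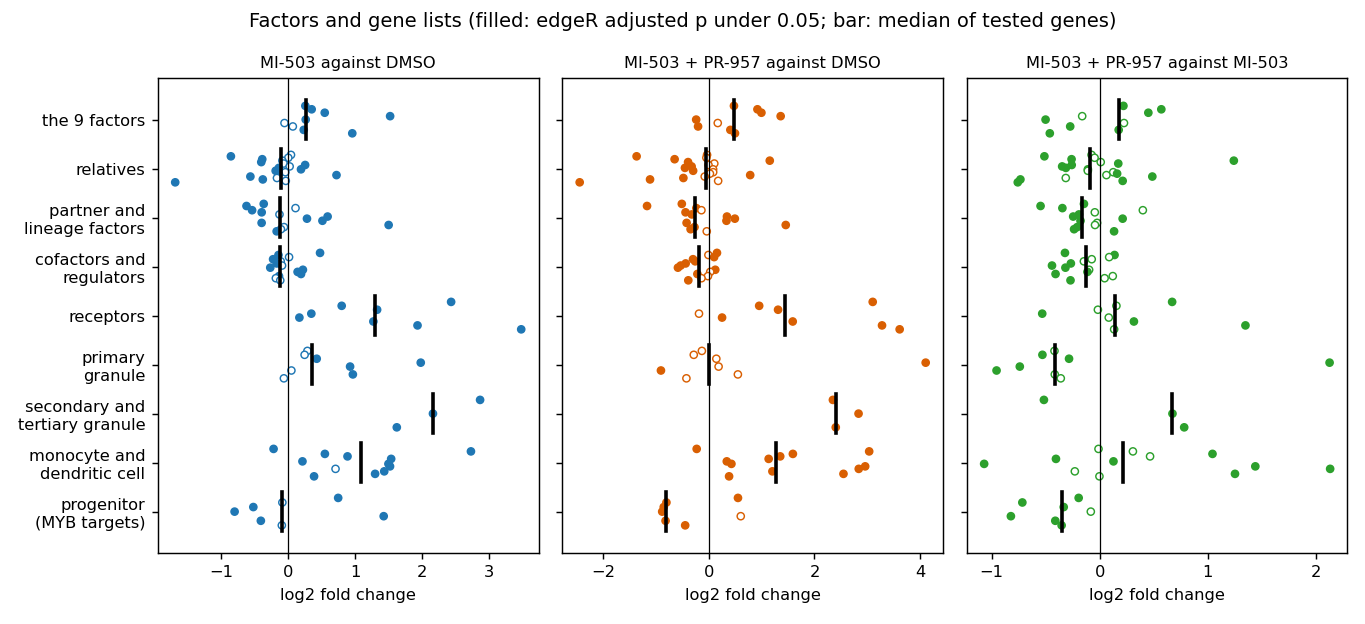
Fitted log2 fold change (horizontal axis) of the 9 factors and of the tested genes of each list (rows) in the 3 comparisons, filled where the edgeR adjusted p is under 0.05, with the median of each row as a bar. The receptor row has its median at 1.30 in MI-503 against DMSO and at 0.14 on adding PR-957, and the row of the 9 factors has its at 0.26 and 0.17.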

How the data were processed

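Polyadenylated RNA of 11 MOLM-13 libraries (TruSeq RNA kit) was sequenced. The authors deposited raw fragment counts for each gene, with no normalization. Per the labels' processing notes and the file headers, reads were handled with Trimmomatic 0.39, STAR 2.7.10a and featureCounts 2.0.1 on exons of the RefSeq annotation of hg38, as pairs and without regard to strand, after an alignment filter whose rule is not stated. Any fragment on exons of more than 1 gene had been dropped, which lowers genes with shared exons. The joined table and the tables of single libraries differed in 0 cells. The authors' tables of log2 fold changes and p-values, deposited beside the counts, were not used.

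Groups followed the labels. Genes passing edgeR's filterByExpr (14683) were fitted in 1 model of 3 group means, scaled with TMM factors (0.956 to 1.056; biological coefficient of variation 6.14%). The quasi-likelihood test of edgeR 4.0.16 (R 4.3.3) was two-sided. Each SE was derived as the absolute log2 fold change over the square root of the F statistic of that test. P-values were adjusted by the Benjamini-Hochberg method over every tested gene, and genes were called at an adjusted p under 0.05. CPM refer to TMM-scaled totals, and a prior count of 0.5 was added for log2 CPM. The test was checked on simulated counts. DESeq2 1.42.0, limma-voom (limma 3.58.1), other scalings and filters, and the omission of each library were tried as alternatives. The 9 factors, gene lists and markers were chosen with earlier results of these data known, and the list genes named are the up to 3 called with the largest fold change per list and comparison. Of the genes so named 1, and 2 of the markers, are not reported here. Depth of 18.9 to 41.2 M fragments limits precision for CEBPE (7 to 45 counts per library). Coordinates are those of the counts' annotation, and promoter windows those of RefSeq on GRCh38.p14.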

Additional observations from a re-analysis of the deposited data

How the results depend on the processing

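Over 20 alternatives (RLE and upper-quartile factors, no filter, a stricter filter, DESeq2, limma-voom, an adjusted p under 0.01, a replicate block, only the compared groups in the fit, and each of the 11 libraries left out), none of the called fold changes of the factors changed sign. In MI-503 against DMSO the count of factors called higher ran from 7 to 8, and 0 were called lower. In the combination against DMSO, 1 factor in place of 2 was called lower at an adjusted p under 0.01, with upper-quartile factors, with the stricter filter and with only the compared groups in the fit, and the count ran from 1 to 2 over the omitted libraries. The lost call was that of MYB, with edgeR adjusted p = 0.0878 for upper-quartile factors, 0.0511 for the stricter filter and 0.0721 for the compared groups alone. In the combination against MI-503, 2 factors in place of 4 were called higher at an adjusted p under 0.01, and the count ran from 1 to 5 over the omitted libraries. IRF8 was called higher in the combination with upper-quartile factors (edgeR adjusted p = 0.0319 against DMSO and 0.0477 against MI-503) and with no filter (edgeR adjusted p = 6.94e-04 and 6.92e-05). The causes were not tested. Replicate numbers of the labels showed no strong pairing of the libraries. Deviations of 10 same-numbered pairs correlated at −0.10 to 0.14, beside −0.13 to 0.12 for other pairs. Of 11 libraries, 3 were closest to their own number. With so few libraries per group, low correlations cannot show that same-numbered libraries were unpaired. With the replicate block the counts of factors called higher and lower were the same as without it in all 3 comparisons (7 and 0, 6 and 2, 4 and 3). Of 960 counts of called list genes over the alternatives, 56 moved by over 1.5 times, and with the block the MMP9 and KIT steps against MI-503 were not called (edgeR adjusted p = 0.106 and 0.0519). At 7 to 45 counts per library, CEBPE had SEs of 0.27 to 0.32, above those of the other 8 factors, which limits what could be detected for it.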

Other observations

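Genes within 5 kb of the factors were read beside them. CEBPA-DT, a divergent noncoding gene that starts 257 bases from CEBPA (chromosome 19, 33302821 to 33305057, plus strand), had a mean of 12.4 ± 1.23 CPM over the DMSO libraries (SD, n = 4). Its mean was 19.4 ± 2.03 CPM over the MI-503 libraries (SD, n = 4) and 12.3 ± 1.93 CPM over the combination libraries (SD, n = 3). It rose by 0.66 in MI-503 (edgeR adjusted p = 4.38e-05) and fell by 0.68 with PR-957 added (edgeR adjusted p = 7.83e-05), where CEBPA itself was higher by 0.22. Against DMSO the combination differed by −0.02 for CEBPA-DT (edgeR adjusted p = 0.864), beside 0.48 for CEBPA. The difference between both genes was not tested.

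SPIDR, which ends 607 bases from CEBPD on the opposite strand, stayed at 57.6 ± 0.768, 58.3 ± 1.53 and 58.1 ± 3.02 CPM and was not called in any of the 3 comparisons (edgeR adjusted p = 0.762, 0.868 and 0.904). LOC105378011, which overlaps MYB on the opposite strand, rose from 1.68 to 2.61 CPM in MI-503 (edgeR adjusted p = 0.00639) and to 2.51 CPM in the combination (edgeR adjusted p = 0.0177). MYBPC3, 2157 bases from SPI1, rose from 0.446 to 0.817 CPM in MI-503 (edgeR adjusted p = 0.0207) and to 0.792 CPM in the combination (edgeR adjusted p = 0.0221). CEBPB-AS1 had 90 counts in all libraries together and MIR6774, inside IRF8, had 179, and neither was called. Strand was not used in counting, so RNA of MYB introns that falls on exons of LOC105378011 would be counted for it. The same holds for RNA of IRF8 introns that falls on MIR6774. MIR202HG, near VENTX, had 2 counts and was not tested.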
